A study of Mus musculus with 4 samples.

Results

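Gastruloids are aggregates of mouse embryonic stem cells that form tissues of the early embryo in culture. The cells described here are a *Hand1*-high and *Krt18*-high mesoderm found in gastruloids at day 4. They were chosen by their own counts: a cell of the day 4 library had to hold 10 or more unique transcript counts (UMIs) of *Hand1*, 5 or more of *Krt18*, none of *Sox17* or *Foxa2*, and fewer than 3 of *Mesp1*. Of 7202 day 4 cells with at least 2000 UMIs and a mitochondrial share under 20%, 593 met this rule, or 8.23% (7.61 to 8.89, exact Clopper-Pearson interval at 95%). The series as a whole holds 29190 such cells from days 4, 5, 6 and 11. All gastruloids were made from the wild type Zx1 line, and each day is 1 library from at least 8 pooled gastruloids. The aggregates had received a pulse of the Wnt agonist Chiron before day 4. bFGF, VEGF and ascorbic acid were added, and shaking began, from day 4, so the day 5 and day 6 gastruloids had been exposed to them.

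*Hand1* encodes a bHLH transcription factor of the lateral plate, the early heart and the extraembryonic mesoderm. Keratin 8 and keratin 18 are the partners of the intermediate filament of simple epithelia, and both are also made in some early mesodermal tissues. *Mesp1* marks mesoderm as it leaves the primitive streak, and *Sox17* and *Foxa2* mark endoderm.

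With 1 library per day there is no replicate, so no test was possible and no p-value is given. Levels are in CPM, the UMIs of a gene in a set of cells per 1000000 UMIs of those cells. Ratios of CPM have exact conditional binomial intervals at 95%, which cover counting error only. Since the kit counts transcript ends, a level is compared between sets of cells and never between genes. A gene was called higher or lower by size alone, at a ratio of at least 2 or at most 0.5, where it reached 10 CPM in the higher set. The same cells gave the rule and the levels, so every value against the other day 4 cells describes the selection and supports nothing beyond it.

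The 4 libraries held between 149169498 and 236714826 UMIs, and pairs of libraries shared between 5 and 23 cell barcodes. The selected cells were deeper than the rest, with a median of 34730 UMIs against 24408. A limit set in UMIs is met more often by a deep cell. In 4 equal bins of day 4 cells, from the shallowest to the deepest, the selected share was 1.28%, 5.94%, 12.1% and 13.6%. Their mitochondrial share was 2.60% against 2.26%, and that of ribosomal protein genes 32.8% against 34.4%. Doublet scores reached the cut set for the top 8% of day 4 scores, ties included, in 23 of the 593 cells (3.88%). They reached it in 612 of the 6609 others (9.26%).

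The steps of the rule narrowed the cells unevenly. *Hand1* alone was met by 2147 cells, *Krt18* then left 939, the absence of *Sox17* and *Foxa2* left 875, and the limit on *Mesp1* left 593. Cells just inside and just outside each limit were compared by *Ahnak*, a marker that the rule did not use. It was 101 CPM in the 67 selected cells with 10 or 11 *Hand1* UMIs and 89.8 CPM in the 59 cells that failed only by holding 8 or 9. At the *Krt18* limit it was 65.3 CPM in 49 cells with 5 or 6 UMIs and 58.7 CPM in 93 cells with 3 or 4. At the *Mesp1* limit it was 127 CPM in 277 cells with 1 or 2 UMIs and 81.3 CPM in 119 cells with 3 or 4. *Krt8* and *Msx2*, also outside the rule, were not higher inside every limit. *Krt8* was lower inside the *Hand1* limit, at 333.7 against 391.6 CPM, and higher inside the other limits. *Msx2* was lower inside the *Krt18* limit, at 166.4 against 172.2 CPM, and higher inside the other limits.

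**Figure D1:**
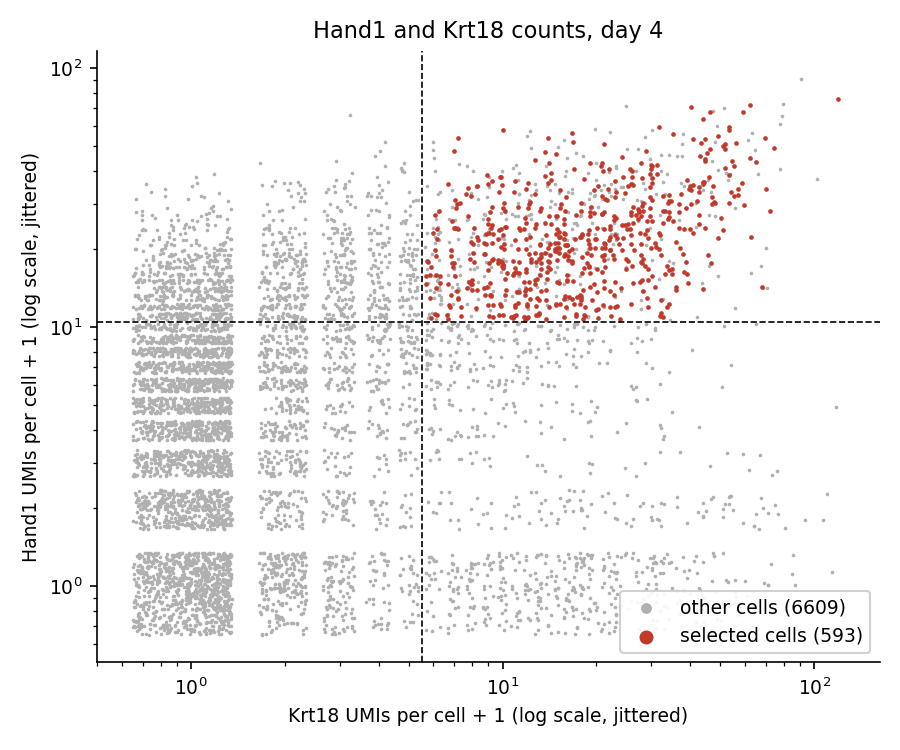
Hand1 against Krt18 UMIs in each of the 7202 day 4 cells, both plus 1 on log axes with jitter, with the limits of 10 and 5 UMIs as dashed lines and the 593 selected cells in red. The cells form no separate cloud at either limit, and grey points in the upper right corner are cells left out for Sox17, Foxa2 or Mesp1.

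The label has 5 markers, of which *Hand1* and *Krt18* are also in the rule and *Krt8* is the partner of *Krt18*. All 5 were at least 2-fold higher in the selected cells. This is no check of the label, since the markers were chosen with earlier results of these data known. *Ahnak*, which encodes a very large scaffold protein under the plasma membrane, showed the widest gap. Its level was 139 CPM against 16.4 CPM in the other cells, a ratio of 8.47 (8.07 to 8.89). Over single cells it ran from 0 through a median of 104 to 945.4 CPM, and 3.89% of the other cells lay above that median. *Krt8* was at 386 against 108 CPM (3.58, 3.49 to 3.66), and its cells ran from 0 through a median of 338 to 2038 CPM. Here 9.12% of the other cells exceeded the median of the selected cells. *Msx2*, a homeobox gene that responds to BMP, was at 188 against 70.7 CPM (2.66, 2.57 to 2.75), and 9.79% of the other cells exceeded its median of 191 CPM. For the rule genes, *Hand1* was at 576 against 208 CPM and *Krt18* at 510 against 125 CPM, as selected. No marker separated the cells completely, since the ranges of both sets overlapped for each of them. The size of the ratios varied with depth. From the shallowest to the deepest of the 4 bins the *Krt8* ratio was 5.98, 5.06, 4.56 and 2.73. For *Msx2* it was 3.63, 3.33, 3.07 and 2.21, and for *Ahnak* 11.5, 8.48, 10.9 and 6.89. The shallowest bin held 23 selected cells.

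Shares of cells with a UMI were compared after every cell had been thinned at random to 5000 UMIs. *Ahnak* was then found in 43.0% of the selected cells (39.0 to 47.1) and in 5.68% of the others (5.14 to 6.27), against 85.8% and 20.8% as deposited. Among endoderm cells (*Sox17* plus *Foxa2* at 5 or more UMIs, *Hand1* under 10, 428 cells), the thinned share was 1.40%. *Krt8* was found in 75.2% of the selected cells and 25.2% of the others after thinning, and in 81.8% of endoderm cells. The keratins did not set the selected cells apart from endoderm. *Krt8* reached 453 CPM and *Krt18* 603 CPM in endoderm cells, while *Ahnak* was at 4.38 CPM and *Hand1* at 16.4 CPM there.

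*Krt8* and *Krt18* lie beside each other on chromosome 15 of mouse build GRCm38, at chr15:101996698-102004482 on the minus strand and chr15:102028180-102032027 on the plus strand. They point away from each other with 23697 bases between them. *Hand1* is at chr11:57828705-57832818 on the minus strand, *Ahnak* at chr19:8989284-9076914 on the plus strand and *Msx2* at chr13:53466884-53473074 on the minus strand (GENCODE M21). The 250 bases before the RefSeq start (GRCm38.p6) of 4 of these genes are given below to show the sequence from which the keratin pair, *Ahnak* and *Msx2* are read. The GENCODE genes of *Krt18*, *Krt8* and *Msx2* start further upstream than these RefSeq starts. The *Msx2* window therefore lies within its GENCODE gene, and the keratin windows overlap theirs. Capitals mark the E-box CANNTG, the kind of site that bHLH factors bind, and GGGCGG, the core that Sp1 binds, each on either strand. They are written from 5′ to 3′ on the strand of the gene, and the positions are chr15:102027966-102028215 for *Krt18*, chr15:102004343-102004592 for *Krt8*, chr19:8989034-8989283 for *Ahnak* and chr13:53472781-53473030 for *Msx2*.
*Krt18*: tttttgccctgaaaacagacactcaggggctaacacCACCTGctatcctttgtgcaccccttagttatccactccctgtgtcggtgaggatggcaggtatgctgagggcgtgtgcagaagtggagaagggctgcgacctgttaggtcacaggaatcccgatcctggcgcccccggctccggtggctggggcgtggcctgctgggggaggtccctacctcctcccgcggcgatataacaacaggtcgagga
*Krt8*: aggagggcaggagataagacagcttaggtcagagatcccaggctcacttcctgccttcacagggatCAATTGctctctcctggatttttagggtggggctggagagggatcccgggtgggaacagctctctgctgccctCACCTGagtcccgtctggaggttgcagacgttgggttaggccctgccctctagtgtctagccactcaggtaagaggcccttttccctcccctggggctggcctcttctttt
*Ahnak*: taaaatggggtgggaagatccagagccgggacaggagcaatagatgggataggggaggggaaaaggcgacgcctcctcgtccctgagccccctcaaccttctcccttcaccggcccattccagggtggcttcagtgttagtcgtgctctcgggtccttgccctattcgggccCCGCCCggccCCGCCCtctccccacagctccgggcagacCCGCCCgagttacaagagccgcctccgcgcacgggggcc
*Msx2*: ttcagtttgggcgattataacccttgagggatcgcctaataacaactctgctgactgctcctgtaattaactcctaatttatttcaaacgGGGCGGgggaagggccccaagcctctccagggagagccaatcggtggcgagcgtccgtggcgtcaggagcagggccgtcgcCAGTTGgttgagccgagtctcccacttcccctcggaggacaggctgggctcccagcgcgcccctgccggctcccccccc
The *Krt8* window held 2 E-boxes, those of *Krt18* and *Msx2* 1 each and that of *Ahnak* 0, while 66.2% of 32851 RefSeq promoter windows of the same length held at least 1. GGGCGG occurred 3 times before *Ahnak*, 1 time before *Msx2* and not before the keratin genes, against 32.7% of all windows. Of 3 further motifs searched on both strands, AGATAA (10.0% of windows) was found 1 time before *Krt8*, GGAATG (12.6%) 1 time before *Ahnak*, and TGANTCA (6.75%) in none of these 4 windows. These are matches of letters and nothing was measured at them.

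Over all genes, 99 of 7488 (1.32%) were at least 2-fold higher in the selected cells and 184 (2.46%) at least 2-fold lower. The median ratio was 1.01. Counts of listed genes given below are to be set beside these shares. Among genes that reached 50 CPM, the leading ones after *Ahnak* were *Spin2c* (97.1 against 14.05 CPM, ratio 6.92) and *Snai2* (64.9 against 12.1 CPM, ratio 5.35). *Spin2c* belongs to an X-linked family of close copies, so its count is uncertain where reads map to more than 1 of them. *Snai2* encodes the zinc finger repressor Slug, a regulator of the transition from epithelium to mesenchyme. *Stard8*, which encodes a GTPase activating protein, was at 135 against 36.3 CPM (3.72). *Pard6b*, a component of the apical polarity complex, was at 56.4 against 19.1 CPM (2.95). *Frmd6*, which encodes a FERM domain protein upstream of the Hippo kinases, was at 55.4 against 19.5 CPM (2.85). *Cdh11*, a mesenchymal cadherin, was at 100.1 against 36.7 CPM (2.73), and *Capn6*, a calpain without protease activity that binds microtubules, at 65.9 against 24.2 CPM (2.72). *Peg10*, an imprinted gene derived from a retrotransposon, was at 185 against 72.5 CPM (2.55). *Smarcd3*, the cardiac subunit of the BAF chromatin remodelling complex, was at 69.4 against 28.2 CPM (2.46). The transcript *C430049B03Rik* was at 63.8 against 18.4 CPM (3.47).

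These genes were not held by every selected cell. After thinning to 5000 UMIs *Spin2c* was found in 34.6% of the selected and 5.21% of the other cells, and *Snai2* in 25.8% and 5.03%. Of the 15 leading genes, the 13 outside the rule were also higher than in the 413 *Hand1*-high cells low in *Krt18*, which met every other limit but held fewer than 5 *Krt18* UMIs. Against these near neighbours *Krt8* was 5.26-fold higher, *Ahnak* 4.38-fold, *Spin2c* 4.04-fold, *Snai2* 2.63-fold and *Stard8* 2.09-fold. The rest fell short of 2-fold. Ratios were 1.95 for *Frmd6*, 1.88 for *Capn6*, 1.78 for *C430049B03Rik*, 1.70 for *Peg10*, 1.60 for *Cdh11* and 1.59 for *Pard6b*. *Msx2*, at 188 and 138 CPM (1.36), and *Smarcd3*, at 69.4 and 52.3 CPM (1.33), differed least. The genes were picked by their ratio in these same cells and the sets were split by *Krt18*. These ratios therefore describe the selection too.

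**Figure D2:**
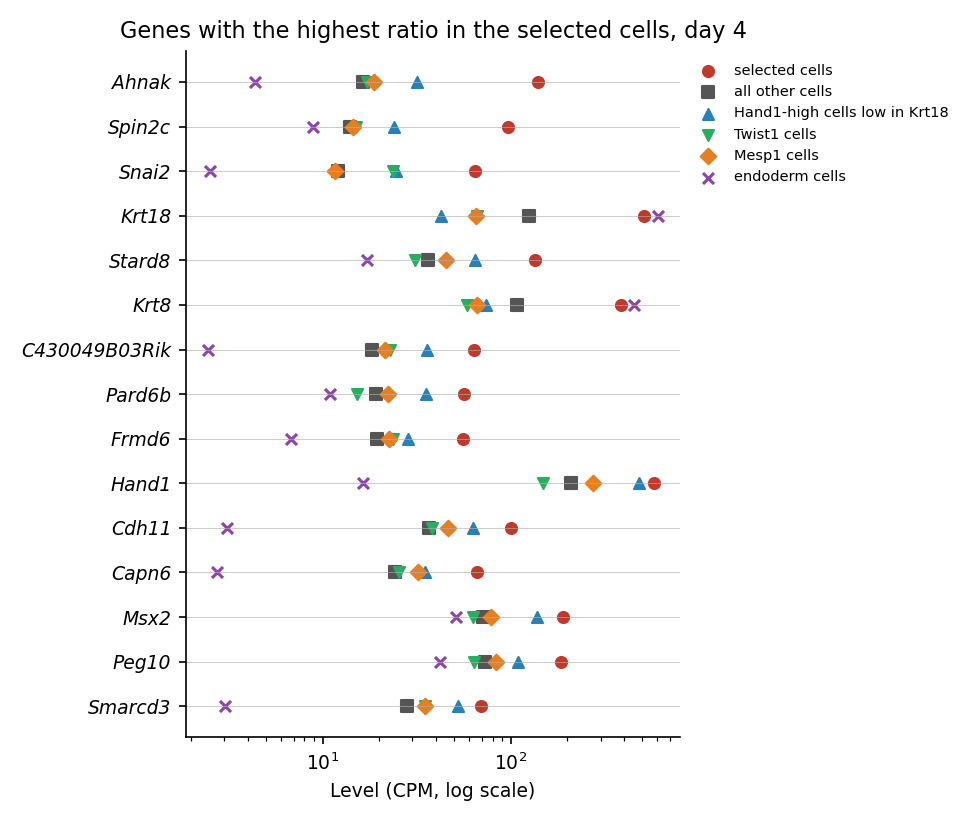
Levels in CPM (log axis) of the 15 leading genes in the selected cells and in 5 other sets of day 4 cells, 1 point per set. Red points lie to the right of every other set for all genes but Krt8 and Krt18, where endoderm cells are higher at 453 and 603 CPM.

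*Krt8* and *Krt18* were the keratin genes past 2-fold. Of the 8 listed, 3 reached 10 CPM, and *Krt10* was level at 12.7 and 12.2 CPM. *Krt7*, a keratin of ducts and trophoblast, had 3 UMIs in all selected cells (0.127 CPM) and 21.1 CPM in endoderm cells. *Krt19* was at 2.45 against 9.93 CPM. *Krt5*, *Krt14* and *Krt20*, which belong to stratified or intestinal epithelium, had 0 UMIs, which allows up to 0.127 CPM (3 UMIs).

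The genes of epithelial junctions did not follow the keratins. Of 13 tested junction genes, 1 (*Cdh11*) was higher and 5 were lower, against 1.32% and 2.46% of all genes. *Cdh1*, which encodes E-cadherin, was at 1.27 against 15.6 CPM, *Epcam* at 9.68 against 70.0 CPM, and the claudin genes *Cldn6* and *Cldn7* at 0.338 against 18.9 CPM and 0.718 against 22.0 CPM. These differences depended on the cells compared. Against other cells with 0 *Sox17* and *Foxa2* UMIs and fewer than 10 *Pou5f1* UMIs, a reduced set, *Epcam* was no longer 2-fold lower (ratio 0.584) and *Cdh1* was at 0.375, and in the *Hand1*-high cells low in *Krt18* *Epcam* was at 7.69 CPM, below the selected cells (ratio 1.26). The desmosomal genes were closer to level. *Dsp* was at 37.3 against 29.3 CPM, *Dsg2* at 18.8 against 13.2 CPM, *Pkp2* at 13.9 against 10.9 CPM and *Jup* at 13.5 against 8.11 CPM, none of them past 2-fold.

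Of 13 tested genes of the mesenchymal list 5 were higher, against 1.32% of all genes, and none lower, with a median ratio of 1.56. Beside *Snai2* and *Cdh11* these were *Twist2* (17.4 against 5.44 CPM), *Pdgfrb*, a receptor of pericytes and mesenchyme (16.1 against 7.52 CPM), and *Pmp22* (195 against 93.4 CPM). Against the reduced set *Pdgfrb* and *Pmp22* fell short of 2-fold (1.82 and 1.71). *Vim*, which encodes the filament of mesenchymal cells, was at 630 against 380 CPM, so keratin and vimentin transcripts were held by the same set of cells. *Snai1*, the paralogue of *Snai2* used at the streak, was at 22.8 against 36.2 CPM, and *Twist1* at 115 against 97.4 CPM. Among 12 tested cytoskeletal genes and annexins, *Ahnak* and *Lgals1* (221 against 90.2 CPM), which encodes galectin 1, were higher and none was lower. *S100a10*, whose protein joins AHNAK to annexin A2, was at 282 against 234 CPM, and *Anxa2* at 57.3 against 58.6 CPM. Of 5 tested YAP targets, *Ccn1* (17.1 against 7.92 CPM) and *Amotl2* (30.8 against 14.5 CPM) were higher and *Fjx1* (8.87 against 18.9 CPM) was lower.

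BMPs are secreted ligands that bind paired receptors, which phosphorylate SMAD1, SMAD5 and SMAD9 and so raise Id, Msx and inhibitory Smad genes. Of 23 tested genes of this pathway 5 were higher and 1 lower, against 1.32% and 2.46% of all genes. Their median ratio was 1.13. Among the ligands *Bmp5* was at 27.8 against 12.9 CPM (2.15), *Bmp4* at 79.6 against 56.0 CPM (1.42), *Bmp2* at 19.8 against 18.0 CPM and *Bmp7* at 17.2 against 22.3 CPM. The ratio of *Bmp5* was 1.78 against the reduced set. The 3 tested receptors *Bmpr1a*, *Bmpr2* and *Acvr2b* had ratios between 0.959 and 1.12. The 3 tested SMAD effectors lay between 0.742 and 0.990. The targets had a median ratio of 1.55, against 1.01 over all genes, and 10 of 11 lay above 1. Of these *Msx2*, *Smad6* (42.2 against 19.3 CPM), *Tbx2* (14.3 against 5.80 CPM) and *Tbx20* (32.7 against 11.7 CPM) passed 2-fold. *Msx1* (268 against 173 CPM), *Tbx3* (157 against 92.7 CPM), *Smad7* (124 against 83.3 CPM) and *Id3* (568 against 398 CPM) did not, and *Id1* was at 206 against 302 CPM. *Fst*, which encodes the activin and BMP binding protein follistatin, was at 5.28 against 40.2 CPM.

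Among the other signalling pathways, the genes that passed 2-fold were lower with 1 exception, *Fgfr2*. Over all genes 2.46% were lower and 1.32% higher. For WNT, 5 of 11 tested genes were lower and none higher, among them *Rspo3*, an amplifier of WNT signals (18.4 against 113 CPM), *Sp5*, a direct target (3.89 against 32.0 CPM), and *Wnt3* (4.35 against 18.3 CPM). For *Nodal*, 3 of 5 were lower, with the coreceptor *Tdgf1* at 2.15 against 65.6 CPM and *Lefty2* at 2.37 against 19.2 CPM. *Tdgf1* was at 78.9 CPM in cells with 3 or more *Mesp1* UMIs and no *Sox17* or *Foxa2*, which the rule left out. For FGF, 4 of 11 were lower and 1 higher. *Fgf8*, the ligand of the streak, was at 3.76 against 98.0 CPM and *Fgf10* at 11.1 against 26.4 CPM, while the targets *Dusp6* and *Etv5* were at 5.07 against 15.7 CPM and 12.6 against 26.2 CPM. *Etv5* was at 0.576 of the reduced set. The receptor gene *Fgfr2* went the other way, at 38.7 against 11.0 CPM (3.53), and *Fgf3* was at 47.9 against 29.0 CPM. For retinoic acid, 2 of 4 were lower. *Aldh1a2*, the enzyme that makes it, was at 7.99 against 53.2 CPM, and *Cyp26a1*, which degrades it, at 10.8 against 47.7 CPM. Of 6 tested Notch genes 2 were lower and none higher, and none of 8 matrix genes tested passed 2-fold. Of the hedgehog genes 3 were tested, none past 2-fold and all above 1, with the receptor gene *Ptch1* at 56.4 against 32.8 CPM, the effector *Gli3* at 55.1 against 35.8 CPM and *Smo* at 46.5 against 43.5 CPM.

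**Figure D3:**
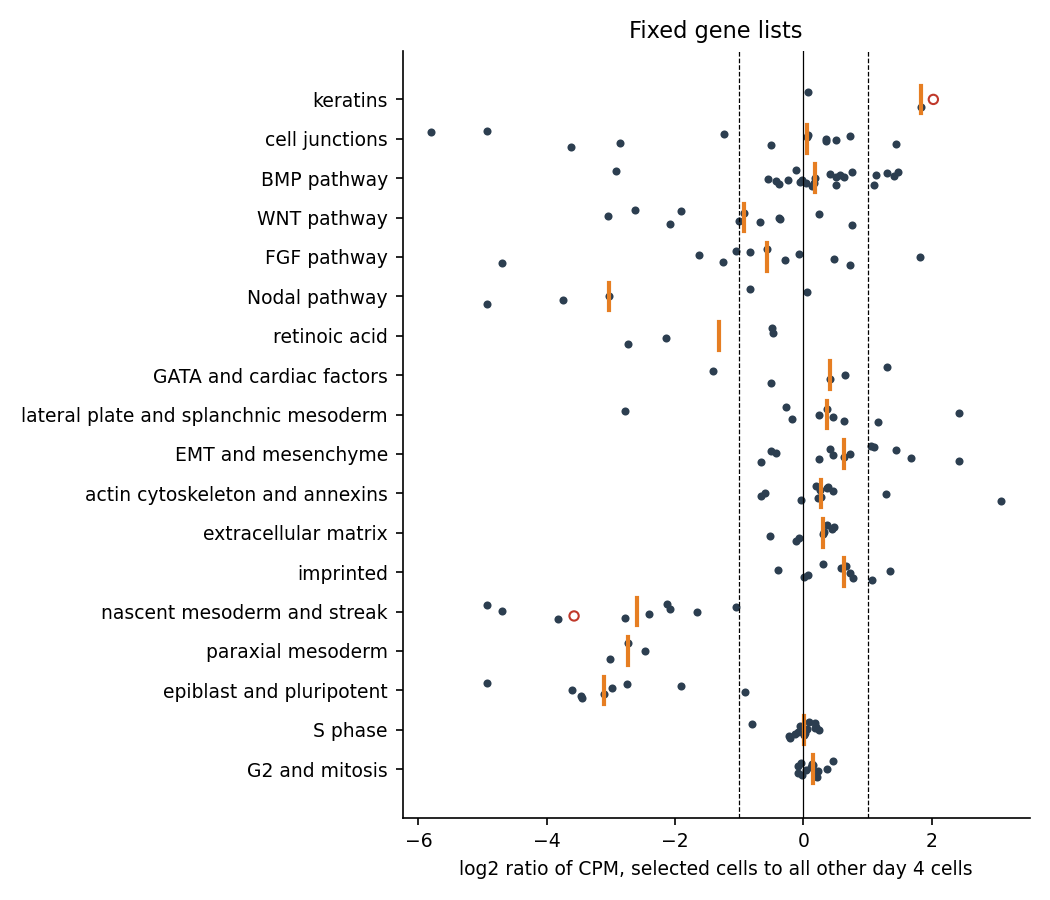
Log2 ratio of CPM, selected cells to all other day 4 cells, for each gene of 18 lists that reached 10 CPM, with the median of each list as an orange bar, rule genes as red circles and 2-fold as dashed lines. The streak, paraxial mesoderm and epiblast lists lie to the left, and the cell cycle lists lie at 0.

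All 10 tested genes of nascent mesoderm and the streak were lower, against 2.46% of all genes, 1 of the 10 (*Mesp1*) by the rule. The rule also left out 2986 cells with 3 or more *Mesp1* UMIs and no *Sox17* or *Foxa2*, all counted among the other cells. Lower levels of genes held by those cells therefore describe the selection. Beside *Mesp1* stood *T*, the brachyury gene (3.04 against 42.9 CPM), *Eomes* (8.91 against 61.4 CPM), *Mixl1* (4.31 against 23.0 CPM) and *Lhx1* (43.6 against 90.4 CPM). The 3 tested genes of paraxial mesoderm were lower as well, with *Foxc1* at 2.24 against 12.4 CPM and *Dll3* at 3.08 against 24.9 CPM. Posterior Hox genes were lower for 3 of 4 tested, among them *Hoxb9* (0.972 against 12.6 CPM), while the fourth, *Hoxb6*, was at 10.4 against 5.52 CPM (1.89). None of the 5 tested anterior genes passed 2-fold and *Hoxb2* was at 106 against 73.2 CPM. The antisense transcript *Hoxaas3* was at 3.802 against 51.5 CPM.

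Genes of lateral plate and splanchnic mesoderm were divided. Of 9 tested, *Snai2* and *Foxf1*, a forkhead gene of the splanchnic layer (101 against 45.3 CPM), were higher and *Osr1* (2.75 against 18.9 CPM) was lower. The ratio of *Foxf1* was 1.81 against the reduced set. *Hand2* was at 88.2 against 56.7 CPM, *Prrx2* at 66.4 against 48.4 CPM and *Prrx1* at 23.6 against 26.6 CPM. Of 5 tested cardiac and GATA factors, *Smarcd3* was higher and *Isl1*, a factor of second heart field progenitors, was lower at 8.45 against 22.4 CPM. *Gata6* was at 101 against 75.8 CPM, *Gata4* at 21.4 against 30.6 CPM, and *Nkx2-5* at 0.380 CPM. The contractile gene *Tnni1* was at 15.6 against 4.52 CPM (3.46) and *Myl7* at 61.0 against 48.6 CPM. *Myh7* had 0 UMIs.

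Few genes of extraembryonic tissues reached 10 CPM, and those that did went both ways. Of 13 genes listed for extraembryonic mesoderm and allantois 4 were tested, 1 higher and 3 lower. *Tdo2*, which encodes tryptophan dioxygenase, was 13.2-fold higher (17.1 against 1.29 CPM, interval 11.3 to 15.5), and *Cdx2*, *Cdx1* and *Rspo3* were lower. *Tdo2* was found in 189 selected cells (31.9%), and in 0.701% of the endoderm cells. After thinning the share was 6.41% against 0.608% of all other cells. *Tbx4* and *Hoxa13* were at 0.169 and 0.465 CPM. Of 13 trophoblast genes, *Plac1* was 6.39-fold higher (33.2 against 5.20 CPM), 7 had 0 UMIs including *Elf5* and *Tpbpa*, and the 5 sets of cells compared held *Plac1* at 1.24 to 11.1 CPM. Of 8 amnion genes 2 were tested and both (*Isl1* and *Igfbp3*) were lower, with *Tfap2a* at 0.380 CPM and *Postn* at 0.0845 CPM. None of the 8 surface ectoderm genes reached 10 CPM. Imprinted genes, many of them linked to placental growth, were higher for 2 of 10 tested (*Igf2* at 210 against 101 CPM, 1.76 times the reduced set, and *Peg10*), with *Phlda2* at 714 against 450 CPM and a median ratio of 1.54.

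Markers of other cell types were summed to show what else the selected cells held. The 11 endoderm genes, 2 of them in the rule, summed to 15.2 CPM in the selected cells and 276 CPM in the others. In the selected cells 4 had 0 UMIs, the rule genes *Sox17* and *Foxa2* among them. The rule placed every cell with *Sox17* or *Foxa2* UMIs among the others, so this gap describes the selection. *Trh*, an endoderm marker here (517 CPM in endoderm cells), was at 1.86 CPM. The 10 epiblast genes summed to 131 against 684 CPM, 8 of 9 tested were lower, and *Pou5f1* was at 6.76 against 74.0 CPM. The 15 genes of blood and endothelium summed to 76.3 against 98.1 CPM, most of it *Kdr* at 46.6 CPM, and *Gata1* and *Erg* had 0 UMIs. The metallothionein genes *Mt1* (18.1 against 148 CPM) and *Mt2* (6.38 against 53.5 CPM) were among the 10 leading lower genes, but their ratios of 0.123 and 0.119 were 0.299 and 0.367 against the reduced set and 0.804 and 0.711 against the *Hand1*-high cells low in *Krt18*. The gene with the lowest ratio of the 10 was *Spink1*, which encodes a trypsin inhibitor (1.39 against 70.2 CPM). It was at 654 CPM in endoderm cells, and its ratio was 0.929 against the reduced set. *Cdkn1a*, the p21 inhibitor of the cell cycle, was at 25.1 against 65.9 CPM. None of the 14 S phase genes, none of the 14 genes of G2 and mitosis and none of 6 tested dissociation stress genes passed 2-fold.

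Within *Hand1*-high cells the *Krt18* count moved with a set of other genes. The 1006 cells with 10 or more *Hand1* UMIs that met the *Sox17*, *Foxa2* and *Mesp1* limits were thinned to 10000 UMIs and ordered by *Krt18* alone, in bins of 288, 156, 185, 182, 131 and 64 cells. From 0 *Krt18* UMIs to 11 or more, *Krt8* went from 63.5 through 144, 239, 398 and 526 to 766 CPM. *Ahnak* went from 26.5 through 71.2, 97.3, 140 and 194 to 193 CPM, and *Spin2c* from 19.7 to 155.1 CPM. *Tdo2* went from 1.54 to 28.6 CPM and *Plac1* from 9.83 to 39.2 CPM. *Snai2* was at 72.5 CPM in the fourth bin and at 72.6 and 72.3 CPM in the last bins. In the other direction, *Aldh1a2* went from 44.7 to 2.01 CPM, *Prrx1* from 53.7 to 10.5 CPM and *Twist1*, at 185 CPM in the bin of 1 UMI, to 70.3 CPM. *Bmp4* lay between 67.3 and 85.0 CPM throughout. Median depth of the bins lay between 28554.5 and 34481.0 UMIs. The limit of 5 UMIs therefore cut a gradient, in which the bin of 1 thinned *Krt18* UMI held 56 selected cells of 156.

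**Figure D4:**
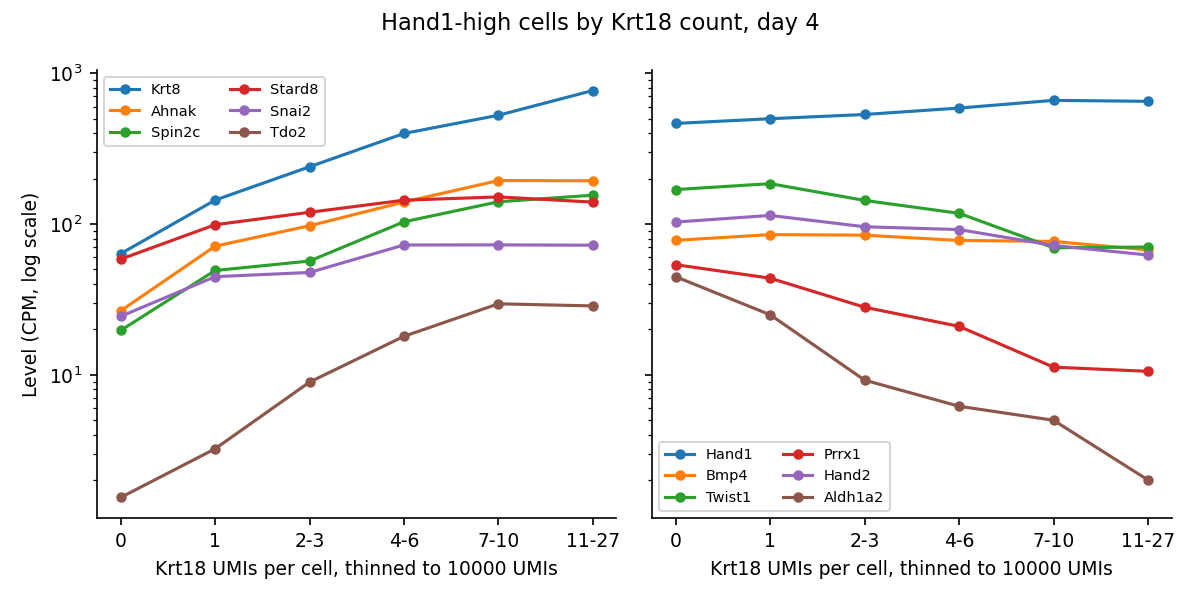
Levels in CPM (log axis) of 12 genes in 1006 Hand1-high cells grouped by their Krt18 UMIs after thinning to 10000 UMIs, 1 point per bin, joined by lines. Krt8, Ahnak, Spin2c and Tdo2 are higher at high Krt18, Bmp4 is level and Twist1, Prrx1 and Aldh1a2 are lower.

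The selected cells also varied among themselves. In counts thinned to 10000 UMIs, the median variance over mean of 2578 genes was 1.08, where pure counting noise gives about 1. The most variable genes were *Malat1* (8.52), a nuclear noncoding RNA, the imprinted gene *Phlda2* (5.85), the X-linked homeobox gene *Rhox5* (5.52) and the mitotic gene *Ube2c* (4.21). Behind them came *Hist1h2ap* (3.94), *Lgals1* (3.37), *Fos* (3.37), *Krt8* (3.14), *2410006H16Rik* (3.13) and *Mest* (3.12). *Krt18* was at 2.67, *Hand1* at 1.65 and *Msx2* at 1.22. Across the 593 cells the Spearman correlation of the thinned counts was 0.48 for *Krt8* with *Krt18*, 0.33 for *Krt8* with *Ahnak* and 0.31 for *Krt8* with *Spin2c*. These cells share 1 library, and all other pairs of the 15 genes compared lay between -0.16 and 0.26.

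When the selected cells were grouped without the rule genes, 5 groups formed, which are given by their leading genes and not named as types. The first (182 cells) was led by the mitotic genes *Prc1*, *Ube2c*, *Plk1*, *Nusap1* and *Aurka*, and the second (160 cells) by the S phase histone genes *Hist1h1d*, *Hist1h1b*, *Hist1h2ae*, *Hist1h1a* and *Hist1h2ap*. The third (108 cells) was led by *Prrx1*, *Hoxb1*, *Twist1*, *Meis1* and *Prrx2*. In it *Twist1* stood at 313 CPM against 62.0 CPM in the other selected cells, while *Krt18* (324 CPM), *Krt8* (238 CPM) and *Tdo2* (4.60 CPM) were low for the selected cells. The fourth (90 cells) was led by *Tmem158*, *Plxna2*, *Csrp1*, *Lgals1* and *Arid5b*. It held the highest levels of *Krt18* (830 CPM), *Krt8* (655 CPM), *Ahnak* (274 CPM), *Snai2* (124 CPM) and *Tdo2* (39.5 CPM) among the 5 groups, at a median depth of 26360 UMIs. *Krt8* and *Krt18* were thus lowest in the third and highest in the fourth group. The third group had a median depth of 43735.5 UMIs, and a deep cell meets the *Krt18* limit at a lower CPM. The part of depth in this contrast was not tested. Since these groups were made from the same counts, their levels are a description only.

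The fifth group (53 cells) was led by *Dppa5a* (334 CPM against 18.5 CPM in the other selected cells), *Mt1*, *Chchd10*, *Cdkn1a* and *Ddit4*. *Pou5f1* was at 43.9 CPM there and between 2.13 and 3.60 CPM in the other 4 groups, and the 10 epiblast genes summed to 550 CPM against 71.5 to 89.6 CPM. Of its 53 cells, 15 (28.3%) had doublet scores at or above the 8% cut of the library, against 0% to 3.70% in the other groups. The part of doublets in this group was not tested. Without these cells *Ahnak* was 8.996-fold higher than in the other day 4 cells, *Krt8* 3.67-fold and *Msx2* 2.65-fold, and *Pou5f1* was at 2.72 CPM and *Mt1* at 7.96 CPM.

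The same rule was applied to the later libraries to see whether such cells were met again. It was met by 1273 of 7408 cells at day 5 (17.2%, 16.3 to 18.1), by 131 of 5850 at day 6 (2.24%, 1.88 to 2.65) and by 0 of 8730 at day 11, which allows up to 0.0344%. The day 11 library is shallower, with a median of 12082 UMIs per cell, so a limit in UMIs is harder to meet there. With limits set in CPM it was 8.03% for day 4, and 11.4%, 1.86% and 0.0573% for the 3 later days. Each day is a different library, so the day and the library cannot be told apart.

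At day 5 *Krt8* was more general. It stood at 733 CPM in the cells that met the rule and 410 CPM in the others, a ratio of 1.79, and *Ahnak* at 86.0 against 38.3 CPM (2.24). *Msx2* kept a ratio of 2.49 at 115 against 46.3 CPM. *Tdo2* was at 1.68 CPM and *Plac1* at 3.82 CPM in these cells, below the levels of 17.1 and 33.2 CPM at day 4. *Foxf1* was at 22.0 CPM after 101 CPM at day 4, and *Myl7* at 12.3 CPM after 61.0 CPM. *Mt1* moved the other way, from 18.1 to 340 CPM, and *Dlk1* from 15.8 to 415 CPM. Both were also higher in the remaining cells of day 5, with *Mt1* at 852 CPM and *Dlk1* at 387 CPM.

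At day 6 the 131 cells were chosen with *Krt18* again, so a high level of its partner *Krt8* is a description. *Krt8* was at 596 against 63.1 CPM (9.44), *Ahnak* at 135 against 28.7 CPM (4.68), *Tdo2* at 58.0 against 1.45 CPM (39.9) and *Plac1* at 36.1 against 3.17 CPM (11.4). *Postn*, a gene of amnion and later of heart valve mesenchyme, was at 34.4 against 4.46 CPM, and at 0.0845 CPM in the selected cells of day 4. *Msx2*, with a counting interval of 13.5 to 21.2 CPM, and *Stard8*, at 10.8 CPM, lay below both earlier days, and *Krt7* had 0 UMIs. *Tnni1* (375 against 305 CPM) and *Myl7* (616 against 1064 CPM) were abundant in both sets of cells by then.

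**Figure D5:**
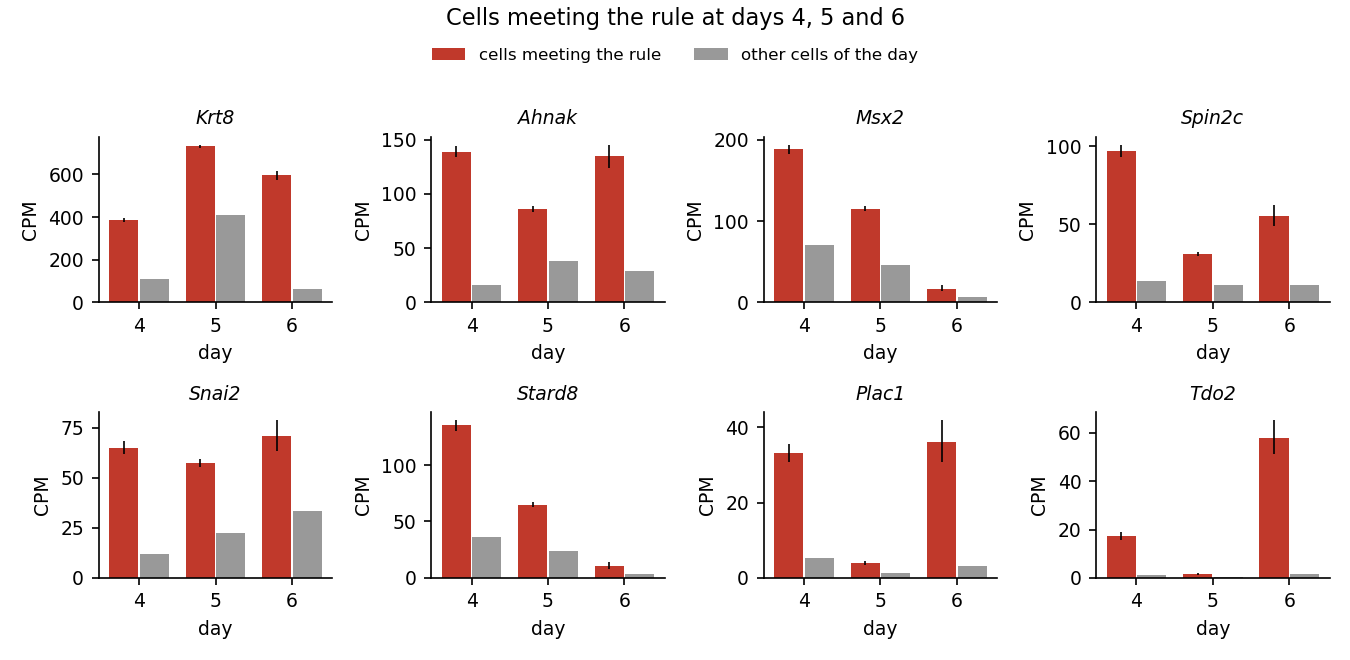
Levels in CPM of 8 genes in the cells that met the rule (red, with 95% Poisson intervals of counting error) and in the other cells of the day (grey) at days 4, 5 and 6, from 593, 1273 and 131 cells that met it. Tdo2 and Plac1 are high at days 4 and 6 and low at day 5, and Msx2 and Stard8 are lower on each later day.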

How the data were processed

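The authors dissociated Zx1 gastruloids and made 1 library per day with the 10X Genomics Chromium 3′ kit. They deposited UMI counts per gene and cell, not normalized and limited to barcodes called as cells. The submitters' processing notes name Cell Ranger 3.1.0 and build mm10, and the header of the day 11 matrix names version 6.0.1. Counts were used as deposited. The members, the gene lists and the tests were chosen with earlier results of these data known.

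Cells were kept at 2000 or more UMIs and a mitochondrial share under 20%. CPM and ratios come from summed counts, with exact Poisson, conditional binomial and Clopper-Pearson intervals at 95%. The intervals and ratios were tested on simulated Poisson counts, which follow the model of the intervals and leave out variation between cells. Counts were thinned at random to 5000 or 10000 UMIs per cell. Scrublet scores came from scanpy 1.11.5. Its automatic threshold marked 0 cells, so doublets stayed in the main values. Selected cells were grouped by Leiden at resolution 0.5 on 2000 variable genes, 20 components and 15 neighbours. The genes named are the rule genes and markers, members of fixed lists, the 15 higher and 10 lower leading genes with 50 or more CPM that are neither mitochondrial nor ribosomal, the 10 most variable genes and the 5 leading genes of each group. Each set of cells is named in the text by its limits, and *Twist1* cells held *Twist1* with *Hand2* or *Prrx2*, *Mesp1* cells 3 or more *Mesp1* UMIs. A listed gene is not reported here and was left out of the counts of its list. Duplicate symbols took the row with more counts.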

Additional observations from a re-analysis of the deposited data

How the results depend on the processing

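The rule was repeated with limits in CPM (400 for *Hand1*, 200 for *Krt18*, 120 for *Mesp1*, 40 for *Sox17* plus *Foxa2*). It was also repeated in cells of 20000 to 40000 UMIs, under stricter cell limits, and without the cells at or above the 8% doublet cut. Further settings took means of CPM over cells, or compared with other cells of 0 *Sox17* and *Foxa2* UMIs and fewer than 10 *Pou5f1* UMIs. The CPM limits picked 578 cells, of which 459 were shared (77.4% of the 593 and 79.4% of the 578). The selected share was 9.74% in the depth band, and between 8.03% and 8.68% under the others. Higher genes numbered 93 to 119 and lower genes 114 to 209 across these 6 settings. The lowest count of lower genes, 114, came from this reduced comparison. This comparison shared 105 of the 184 lower genes and 74 of the 99 higher genes. With at least 50 CPM 33 genes were higher and 31 lower, and without a limit on level 1302 and 2003. The shares at days 5, 6 and 11 were 11.4%, 1.86% and 0.0573% with limits in CPM.

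Of 77 listed genes past 2-fold, all kept it under 5 of the 6 settings. In the reduced comparison 63 did (*Sox17* and *Foxa2* are at 0 there by construction), and *Dppa3*, the 1 tested gene of the germ cell list, turned from 0.266 to 1.06. Between 33 and 37 of 37 list medians stayed on their side of 1. No paired analysis was possible because each day is 1 library. Genes below 10 CPM were not tested. No result met a rule for a closer look, since no group holds 4 samples.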
